A study of Pan troglodytes with 38 samples.

Results

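The circadian clock genes examined here were ARNTL, NPAS2, CLOCK, PER1, PER2, PER3, NR1D1, NR1D2, DBP and TEF, chosen by name as 10 of the 31373 genes in a table of gene counts from chimpanzee hearts. Of these 31373 genes, 18040 could be given a gene symbol, and ARNTL was found under its other symbol, BMAL1. All 10 genes passed the filter on low counts, which left 15392 genes. The question was whether genes that peak at opposite times of the daily cycle were also at opposite levels when 1 heart was compared with another.

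The study set out to compare how much heart gene expression differs between individuals in chimpanzees and in humans. Its chimpanzee samples were post-mortem heart tissue of 38 captive-born animals, 22 female and 16 male, with 1 RNA-seq library per animal, and the labels put them in no treatment or genotype group. Ages were given for 34 animals and ran from 10 to 57 years (median 32). RNA of 17 animals was extracted in a first year, and their libraries came from a previous study (called the earlier RNA here), while that of 21 animals was extracted in 2018 for newly made libraries (the later RNA), so the extraction year and the origin of the library cannot be told apart. The study's list of animals notes 7 as positive for hepatitis B or C virus and 1 as exposed to HIV, all 8 of them among the later RNA, and calls that were lost without them are named. Some of the animals were first-degree relatives, and the animals are therefore not fully independent. The hour at which each animal died was not given in the tables used here. Human columns were not used here, because none of them belongs to a sample of this series.

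In mammalian cells the circadian clock is a transcriptional feedback loop that runs in nearly every tissue, the heart included. A dimer of ARNTL with CLOCK, or with the CLOCK paralog NPAS2, binds E-box elements and activates the PER and CRY genes, the nuclear receptors NR1D1 and NR1D2 and the PAR bZIP factors DBP, TEF and HLF. PER and CRY proteins then inhibit the dimer, while NR1D1 and NR1D2 repress transcription of ARNTL, NPAS2 and CLOCK. In tissues sampled around the clock, ARNTL and NPAS2 therefore peak when NR1D1, DBP, PER3 and TEF are near their troughs, and PER1 and PER2 also answer to acute signals such as glucocorticoids and immediate early stimuli.

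Total gene counts ranged from 43892814 to 132478050 per animal (median 63639041.5), and mitochondrially encoded genes took 17.2% to 60.1% of them. RNA integrity numbers (RIN) ran from 2.5 to 8.4. Levels are given as CPM, the usual unit of gene counts relative to library size, after TMM scaling. All 8 cardiomyocyte markers had a median above 1 CPM, and their summed level lay between 5480 and 71028 CPM. The samples are bulk tissue, so that fewer cells of a type and less RNA per cell cannot be told apart in any of the values that follow.

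Among the activators, ARNTL varied most between hearts. It had its lowest value, 1.79 CPM, in animal 4x0519, a median of 8.26 CPM, and its highest value, 29.5 CPM, in animal 503, which is a 16.5-fold range. NPAS2 ranged from 11.1 CPM in animal 529 through a median of 29.5 CPM to 58.9 CPM in animal 495. CLOCK, the constitutive partner of ARNTL in most tissues, ran from 1.91 CPM in animal 4X0339 through a median of 7.25 CPM to 11.2 CPM in animal 4X0095. Animals with the extremes of ARNTL were thus not those with the extremes of NPAS2 or CLOCK.

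The PER genes encode the period proteins that inhibit the activator dimer. PER1 was lowest in animal 503 at 34.2 CPM, had a median of 89.8 CPM and was highest in animal 529 at 362 CPM. PER2 had the same lowest and highest animals, at 2.01 CPM in 503 and 32.9 CPM in 529, around a median of 6.22 CPM. Animal 503, with the highest ARNTL, therefore had the lowest PER1 and PER2 of the 38. PER3 ran from 5.51 CPM in animal 4X0333 through a median of 16.02 CPM to 34.8 CPM in 4x0519, the animal with the lowest ARNTL.

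NR1D1 and NR1D2 encode the REV-ERB repressors, nuclear receptors that switch ARNTL off. NR1D1 was lowest in animal 295 at 1.67 CPM, had a median of 8.56 CPM and was highest in animal 676 at 18.4 CPM. NR1D2 ran from 12.2 CPM in animal 4X0333 through a median of 29.7 CPM to 52.0 CPM in animal 4x0519. The lowest and the highest animal of NR1D2 were thus those of PER3. In mammalian genomes NR1D1 lies on the strand opposite THRA, the thyroid hormone receptor alpha gene, with overlapping 3′ ends. The library kit named by the study does not mark strand, so reads from the overlap cannot be assigned to either gene. THRA did not follow NR1D1 in these hearts (slope 0.00 ± 0.10 SE on the log2 scale, adjusted p = 0.984 by edgeR's quasi-likelihood test over 15391 genes). That slope does not measure the reads of the overlap, whose part in the NR1D1 counts was not tested.

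DBP and TEF are PAR bZIP transcription factors that carry the clock's phase to downstream genes. DBP was the one of the 10 clock genes with the fewest reads, with 33 counts in animal 495, for which counting error alone is 17.4%. Its level there was 0.66 CPM, against a median of 2.96 CPM and a highest value of 8.41 CPM in animal 549. TEF was also lowest in animal 495, at 10.3 CPM, with a median of 29.6 CPM and a highest value of 61.0 CPM in animal 438. Animal 495, which had the highest NPAS2, thus had the lowest DBP and TEF.

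On the log2 scale the clock genes varied more between hearts than the median gene. The standard deviation of log2 CPM over the 38 animals was 0.46 for the median gene, and all 10 clock genes were above it. They lay between the 52.3 and the 87.4 percentile of all genes, with NR1D2 at 0.47 and PER2 at 0.83. The biological coefficient of variation, which edgeR estimates around a fit, placed fewer of them above the median gene. In the fit along ARNTL with extraction year, NR1D2 was at the 19.4, PER3 at the 42.9 and NPAS2 at the 45.1 percentile of all genes. The heat map of levels by animal shows the members in the order of ARNTL.

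**Figure D1:**
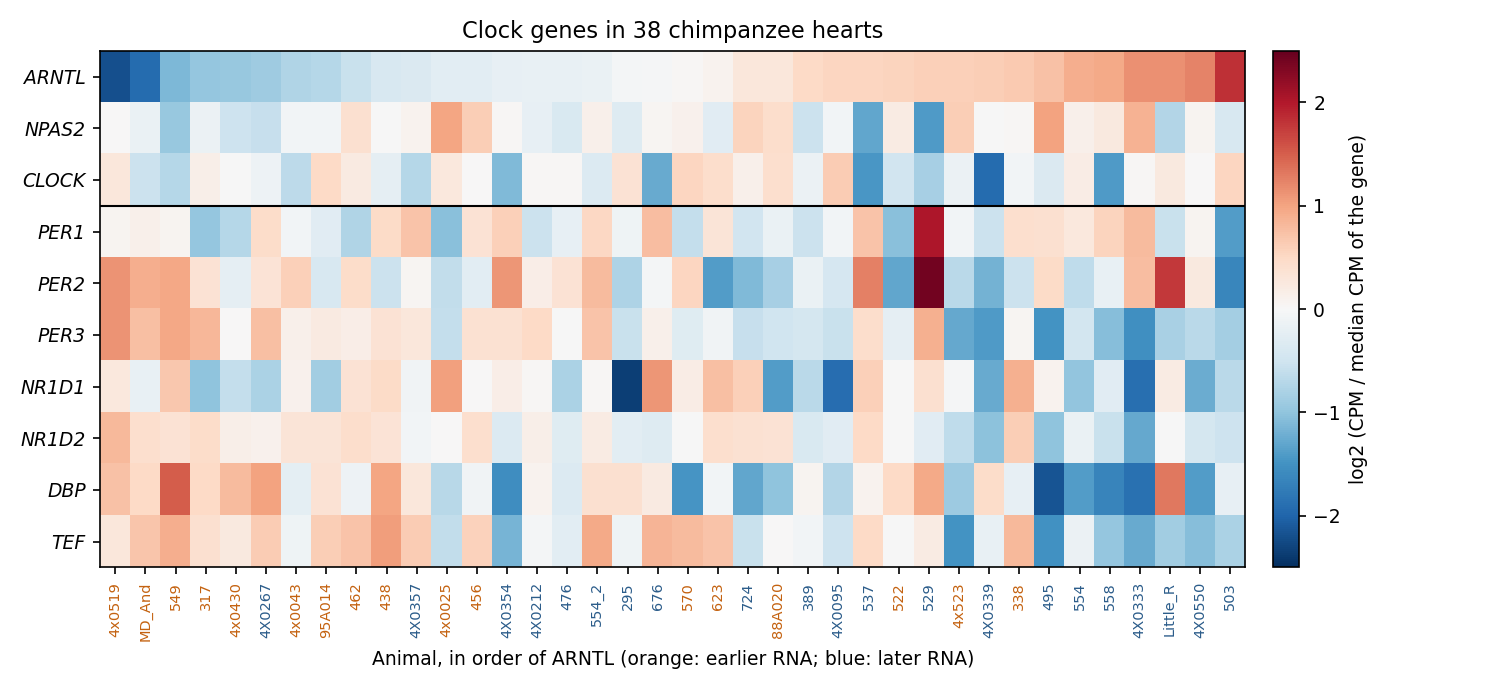
Level of each clock gene (rows) in each of 38 animals (columns, in order of ARNTL), as log2 of CPM over the median CPM of that gene. Red is above and blue below the median, and animal names are orange for the earlier RNA and blue for the later RNA. PER3, NR1D2, DBP and TEF are mostly red on the left, where ARNTL is low, and mostly blue on the right.

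Between hearts, ARNTL was opposed to PER3, NR1D2, TEF and DBP, and NPAS2 was opposed most clearly to DBP and PER3. Of the 14 pairs that set ARNTL or NPAS2 against a PER, NR1D or PAR bZIP gene, 13 had a Pearson r below 0. Of all genes, 54.4% had an r below 0 with ARNTL and 48.6% with NPAS2. A two-sided permutation p under 0.05 was found for 8 of the 13 pairs. With ARNTL these were 4 of 7 genes, where 6.71% of all 15391 genes had an r below 0 with an unadjusted p under 0.05. With NPAS2 they were also 4 of 7 genes, where the share of all genes was 7%. All 45 pairs of clock genes were computed, and 19 of them had a permutation p under 0.05, against 22.4% of the pairs of a clock gene with any gene. In the normalized matrix of the authors, which holds 37 of the animals, 11 of the 45 had. There r of ARNTL was −0.42 with PER3, −0.50 with DBP, −0.41 with TEF and −0.15 with NR1D2, the last no longer past the threshold. That of NPAS2 was −0.53 with DBP, and −0.11 with PER3, −0.18 with TEF and −0.051 with PER2, none of these 3 past the threshold.

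PER3 had the lowest r with ARNTL among the 15391 genes tested, in log2 CPM over all 38 animals. In the normalized matrix, DBP was more opposed to ARNTL than PER3 was. Animal 4x0519 combined the lowest ARNTL with the highest PER3, and animal 4X0333 combined the lowest PER3 with an ARNTL of 18.2 CPM. Animal 503, with the highest ARNTL, had PER3 at 8.92 CPM. Animal 529 lay away from this order, with ARNTL at 12.4 CPM and PER3 at 29.8 CPM. Over all 38 animals r was −0.73 and Spearman's rho −0.74, both with p = 1e-05, the smallest that 100000 permutations can give. Without animals 4x0519 and 503, which had the most extreme ARNTL, r was −0.70. Without the 8 animals with a virus note it was also −0.70. The permutation p there was 5e-05, the smallest that the 20000 permutations used for alternatives can give. It was −0.79 (permutation p = 0.00035) in the earlier RNA and −0.67 (permutation p = 0.00095) in the later RNA.

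The same relation was fitted to the counts of every gene, with extraction year as a covariate. The slope is the log2 change of a gene per doubling of the ARNTL level. PER3 fell by 0.69 ± 0.12 (SE) per doubling of ARNTL (adjusted p = 0.0165, edgeR's quasi-likelihood test with Benjamini-Hochberg adjustment). It was the only gene called in this fit, which is 0.0065% of 15391 genes and 1 of the 9 other clock genes. The number of genes called depended on the fit. It was 586 without extraction year, 14 by DESeq2, 12 with all genes that had a count, and 3, all higher, with the total of the orthologous exon table as library size. The next genes by p were RBP7, a retinol-binding protein gene, at −1.05 ± 0.23 (adjusted p = 0.324) and LRG1, a secreted leucine-rich glycoprotein gene, at 3.02 ± 0.68 (adjusted p = 0.398). The call of PER3 was lost when the summed atrial markers were added as a covariate (adjusted p = 0.0637, slope −0.69) and with the exon total (adjusted p = 0.0683, slope −0.62). It was lost in the earlier RNA alone (adjusted p = 0.356, slope −0.62), in the later RNA alone (adjusted p = 0.639, slope −0.76) and without the 8 animals with a virus note (adjusted p = 0.905, slope −0.61 ± 0.14), where PER3 was still at rank 1.

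The other genes opposed to ARNTL did not pass the adjustment over all genes once extraction year was in the fit. TEF had a slope of −0.44 ± 0.15 along ARNTL (adjusted p = 0.652, rank 112 of 15391 by p), NR1D2 of −0.24 ± 0.09 (adjusted p = 0.659, rank 195), DBP of −0.45 ± 0.20 (adjusted p = 0.735, rank 536) and PER2 of −0.44 ± 0.21 (adjusted p = 0.762, rank 973), all from edgeR's quasi-likelihood test. At an unadjusted p under 0.05, 5 of the 9 other clock genes were lower with more ARNTL and 0 were higher, against 2.48% and 4% of all genes. The median slope of the 9 was −0.24, and that of all genes was 0.01.

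NR1D2 and TEF stood close to PER3 in the order of all genes by r with ARNTL. NR1D2 had r = −0.63 (permutation p = 4e-05; rho −0.60, permutation p = 9e-05), the value of rank 6 from the lowest of 15391 genes, but −0.15 (permutation p = 0.367) in the normalized matrix. In the RNA of each year alone r was −0.52 in the earlier RNA and −0.44 in the later RNA. TEF had r = −0.57 (permutation p = 0.00015; rho −0.56, permutation p = 0.00035), rank 13 from the lowest, with −0.30 (rho −0.11, permutation p = 0.245) in the earlier RNA and −0.61 in the later RNA. DBP had r = −0.47 (permutation p = 0.00317; rho −0.48, permutation p = 0.00297), rank 111 from the lowest, with −0.58 in the earlier RNA and −0.33 in the later RNA. For these pairs the value without the animals of most extreme ARNTL was −0.57 for NR1D2, −0.59 for TEF and −0.48 for DBP.

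ARNTL and NR1D2 also differed between the extraction years, in opposite directions. ARNTL had a median of 6.22 CPM (1.79 to 13.04) in the earlier RNA and 12.04 CPM (4.49 to 29.5) in the later RNA, and the ranges overlap. The difference was 0.90 ± 0.24 on the log2 scale with RIN and sex in the fit (adjusted p = 0.00775, edgeR). NR1D2 had medians of 38.1 CPM (19.2 to 52.0) and 24.4 CPM (12.2 to 41.6), a difference of −0.49 ± 0.13 (adjusted p = 0.00663). These 2 of the 10 clock genes were called, against 15.1% of 16462 genes, a share close to that background. With extraction year taken out, r of ARNTL was −0.71 with PER3, −0.46 with NR1D2, −0.46 with TEF and −0.43 with DBP. RIN was associated with 0 of the 10 clock genes by edgeR, against 0% of all genes, and with 0 by DESeq2. At an unadjusted p under 0.05 it was associated with 1 of 10, CLOCK (0.16 ± 0.06 per RIN unit), against 13.8% of all genes. Sex was associated with 0 of 10 by edgeR, against 0.243% of all genes, and with 0 by DESeq2. At an unadjusted p under 0.05 the count for sex was also 0, against 8.55% of all genes.

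**Figure D2:**
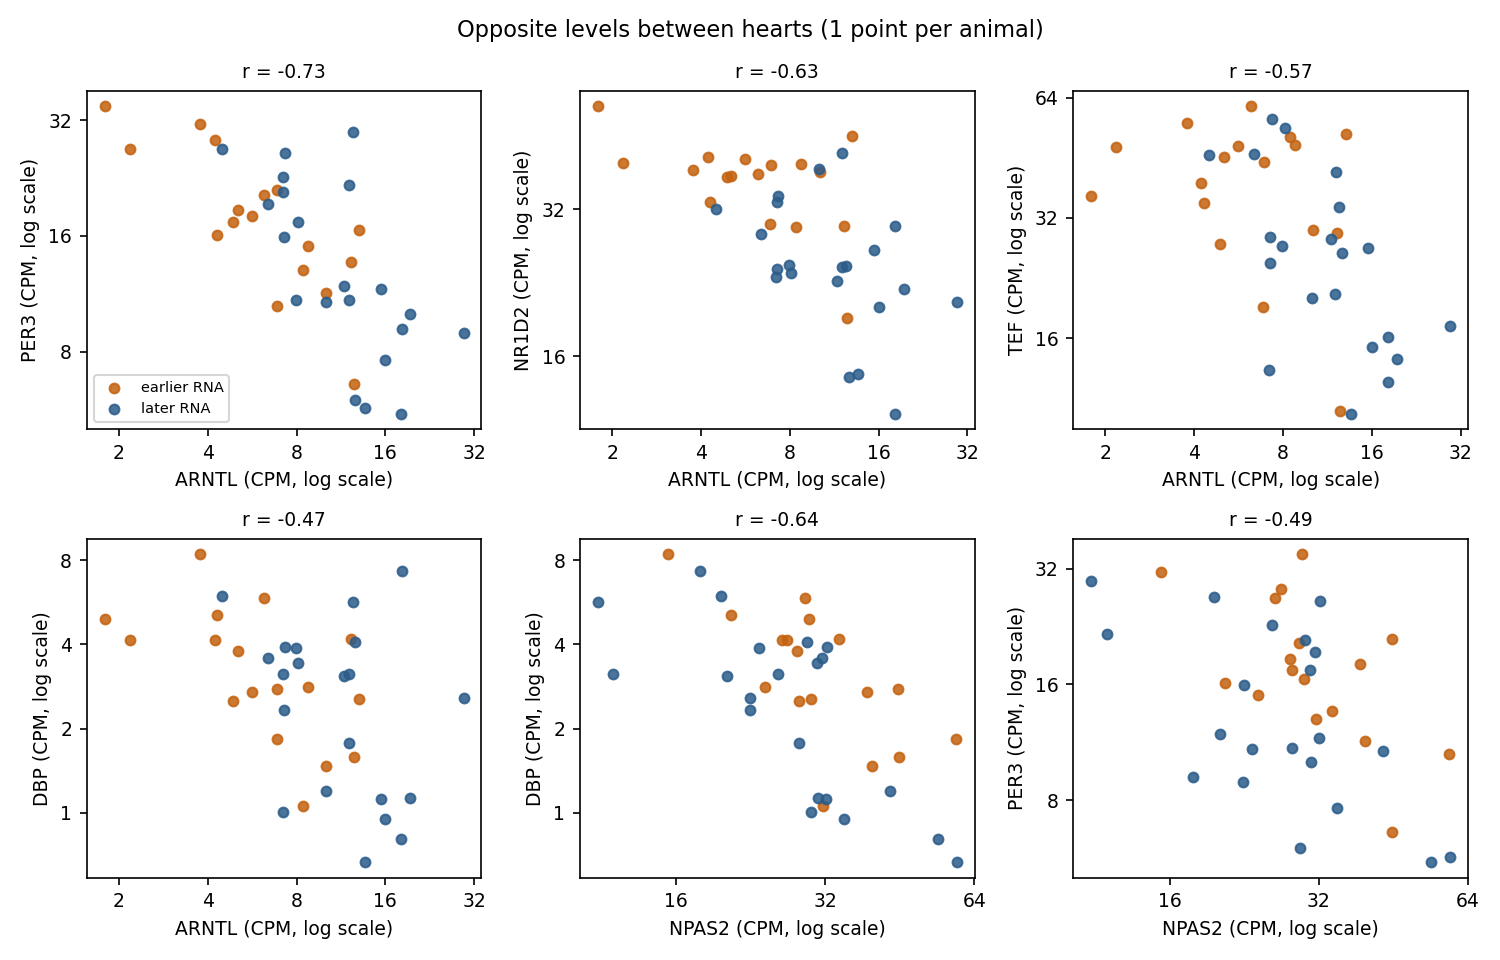
Level of PER3, NR1D2, TEF and DBP (vertical axes, CPM) against ARNTL or NPAS2 (horizontal axes, CPM), all on log scales, with 1 point per animal coloured by the year of RNA extraction and Pearson's r of log2 CPM above each panel. Over all animals points run from upper left to lower right in each panel, most tightly for PER3 against ARNTL (r = −0.73) and DBP against NPAS2 (r = −0.64). In the earlier RNA alone TEF against ARNTL had r = −0.30.

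PER1 and NR1D1 showed no clear opposition to ARNTL. For PER1 r was 0.01 (permutation p = 0.935; rho 0.09, permutation p = 0.592), with −0.05 in the earlier RNA and −0.27 in the later RNA, so that its sign depended on whether extraction year was considered. For NR1D1 r was −0.20 (permutation p = 0.221; rho −0.17, permutation p = 0.297), with 0.11 in the earlier RNA and −0.18 in the later RNA. Animal 295, with the lowest NR1D1, had an ARNTL level of 7.96 CPM, close to the median of all animals. For PER2 the relation to ARNTL depended on the animals and on extraction year. It had r = −0.25 over all animals (permutation p = 0.131; rho −0.26, permutation p = 0.115), −0.08 without animals 4x0519 and 503, −0.39 (permutation p = 0.0198) without 537 and Little_R, and −0.40 (permutation p = 0.0141) with extraction year taken out. Within years it was −0.79 (permutation p = 1e-04) in the earlier RNA and −0.12 (permutation p = 0.603) in the later RNA. The difference of the slopes between the years was 0.87 ± 0.42, with an adjusted p of 0.999 over all genes in edgeR's test of the interaction and an unadjusted p of 0.0458. In the later RNA, animals 529 and Little_R held the highest PER2 of all, 32.9 and 21.2 CPM, with ARNTL at 12.4 and 18.2 CPM.

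NPAS2, the other partner that the REV-ERB receptors repress, was opposed most to DBP. Animal 495 combined the highest NPAS2 with the lowest DBP, and animal 4X0333 had NPAS2 at 54.0 CPM and DBP at 0.81 CPM. At the other end, animal 549 combined the highest DBP with an NPAS2 of 15.4 CPM, and animal 529 combined the lowest NPAS2 with a DBP of 5.67 CPM. High NPAS2 thus came with low DBP at both ends of the range. DBP fell by 1.25 ± 0.21 (SE) per doubling of NPAS2 (adjusted p = 0.00464, edgeR's quasi-likelihood test), at rank 3 of 15391 genes by p. The adjusted p stayed under 0.05 in every alternative over 30 or more animals, at most 0.0494 with the atrial markers as a covariate, and was 0.121 and 0.155 in the RNA of each year alone. Over animals r was −0.64 (permutation p = 3e-05; rho −0.63, permutation p = 5e-05), −0.68 without animals 529 and 537, −0.69 in the earlier RNA and −0.72 in the later RNA.

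PER3 was the only other clock gene called along NPAS2 in this fit. It fell by 0.74 ± 0.18 per doubling (adjusted p = 0.0397, edgeR), at rank 94, with r = −0.49 (permutation p = 0.00167; rho −0.43, permutation p = 0.00802). Thus 2 of 9 clock genes were called, both lower, against 0.812% of all genes, 0.676% of them lower. In number, 125 genes were called, but 227 by DESeq2, 18 by limma-voom, 2 with RIN and sex added and 11 without the animals with a virus note. The PER3 call was lost in 8 of 14 alternatives over 30 or more animals. Among the 8 were leaving out the animals with a virus note (adjusted p = 0.127), the exon table's total as library size (adjusted p = 0.114) and RIN and sex as covariates (adjusted p = 0.0805). At an unadjusted p under 0.05, 5 of 9 were lower and 0 higher, against 9.99% and 4.31% of all genes. The remaining 3 of these 5 were PER2 at −0.69 ± 0.21 (adjusted p = 0.1), TEF at −0.55 ± 0.20 (adjusted p = 0.17) and NR1D2 at −0.30 ± 0.12 (adjusted p = 0.202).

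Most genes called along NPAS2 were outside the clock lists. The genes of smallest p, named after their values were seen, were COL9A1, a cartilage collagen gene, at −2.66 ± 0.45 and CRHBP, which encodes a binding protein of corticotropin-releasing hormone, at −2.99 ± 0.51, both with an adjusted p of 0.00464 like DBP. The relation of PER2 to NPAS2 depended on which animals were kept. It had r = −0.41 (permutation p = 0.011; rho −0.27, permutation p = 0.103), but −0.18 without animals 529 and 537, which had the lowest NPAS2 (11.1 and 11.9 CPM) and PER2 at 32.9 and 14.9 CPM. These 2 animals had mitochondrial shares of 52.7% and 60.1%, among the highest of all. An alternative fit along NPAS2 held this share as a covariate, and the slope of PER2 did not turn sign there. The correlation itself was not computed with the share taken out. In the earlier RNA, which holds neither 529 nor 537, r of PER2 with NPAS2 was −0.36 (permutation p = 0.152). It was −0.40 (permutation p = 0.0708) in the later RNA and −0.50 (permutation p = 0.00505) without the animals with a virus note. For PER1, r with NPAS2 was −0.19 (permutation p = 0.249) and turned to 0.14 without animals 529 and 537. NR1D1 had r = −0.04 (permutation p = 0.799), and NR1D2 had −0.25 (permutation p = 0.138), or −0.45 with extraction year taken out.

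**Figure D3:**
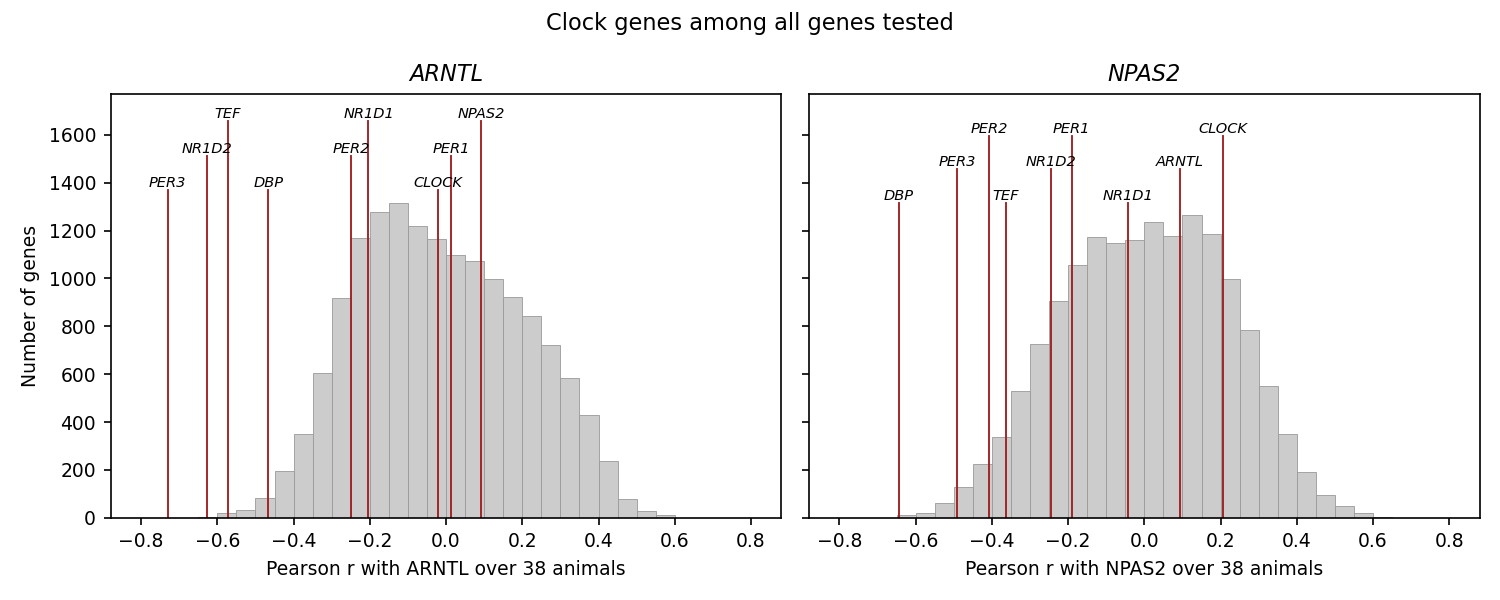
Number of genes (vertical axis) by Pearson's r of log2 CPM with ARNTL (left) and with NPAS2 (right) over 38 animals, for 15391 genes in bins of r. Red lines mark the clock genes. PER3, NR1D2 and TEF lie at the lower end of the distribution with ARNTL, at ranks 1, 6 and 13, and DBP lies at rank 3 with NPAS2, while CLOCK, PER1 and NR1D1 lie within the bulk of all genes.

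No pair of activators passed the test over all animals. ARNTL and NPAS2 had r = 0.09 (permutation p = 0.578; rho 0.20, permutation p = 0.231), and rho was 0.33 without 537 and Little_R. In the earlier RNA r was 0.44 (permutation p = 0.082) and rho 0.59, and in the later RNA r was 0.09. ARNTL and CLOCK had r = −0.02 (permutation p = 0.898), and NPAS2 and CLOCK had 0.21 (permutation p = 0.212). Animals 4X0333 and 495 were high in both ARNTL (18.2 and 13.7 CPM) and NPAS2 (54.0 and 58.9 CPM). Animal 503, by contrast, had the highest ARNTL with an NPAS2 of 22.5 CPM, below the median.

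Among the repressor and output genes, correlations were highest for PER3 with NR1D2 and with TEF. Of their 21 pairs, 19 had r above 0, and 10 of these had a permutation p under 0.05. Of the pairs of any of the 10 clock genes with any gene, 22.4% had an unadjusted p under 0.05, in either direction. That share was not computed for these 7 genes or for r above 0 alone. PER3 and NR1D2 had r = 0.74 (p = 1e-05, the smallest that the permutations can give), PER3 and TEF 0.74 (p = 1e-05), NR1D2 and TEF 0.70 (permutation p = 2e-05), DBP and TEF 0.61 (permutation p = 6e-05), PER3 and DBP 0.61 (permutation p = 7e-05) and NR1D2 and DBP 0.45 (permutation p = 0.00399). Each of these 6 pairs, named after their values were seen, was above 0.41 in the RNA of each year. NR1D2 and DBP passed in neither year (permutation p = 0.0837 in the earlier RNA and 0.0627 in the later RNA). DBP and TEF did not pass in the earlier RNA (permutation p = 0.0752). Animal 4X0333, with the lowest PER3 and NR1D2, had DBP at 0.81 CPM and TEF at 12.4 CPM, and animal 549 had PER3 at 31.3 CPM with the highest DBP and a TEF of 55.3 CPM.

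In the fits over all genes, the genes with the 2 smallest p along PER3 were other clock genes. The fits along PER3, NR1D2, TEF and DBP were run in 1 setting each and not repeated under the alternatives. Along PER3, 13 of 15391 genes were called (0.0845%), and 3 of the 9 other clock genes were among them. TEF was at rank 1 by p, with a slope of 0.72 ± 0.12 (adjusted p = 0.00569, edgeR), NR1D2 at rank 2 with 0.43 ± 0.07 (adjusted p = 0.00569) and ARNTL at rank 4 with −0.74 ± 0.13 (adjusted p = 0.00905). Along NR1D2, 2 genes were called (0.013%), and PER3 was at rank 1 (slope 1.43 ± 0.22, adjusted p = 0.00187). TEF was at rank 3 along NR1D2 (1.07 ± 0.25) but with an adjusted p of 0.36. Along TEF, 128 genes were called (0.832%), among them PER3 at rank 5 and NR1D2 at rank 52. Along DBP, 348 genes were called (2.26%), among them NPAS2 at rank 2 (slope −0.50 ± 0.08, adjusted p = 0.00194), PER3 at rank 57 and TEF at rank 131. Fits along 2 members of a pair use the same animals and levels and are not independent of each other.

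**Figure D4:**
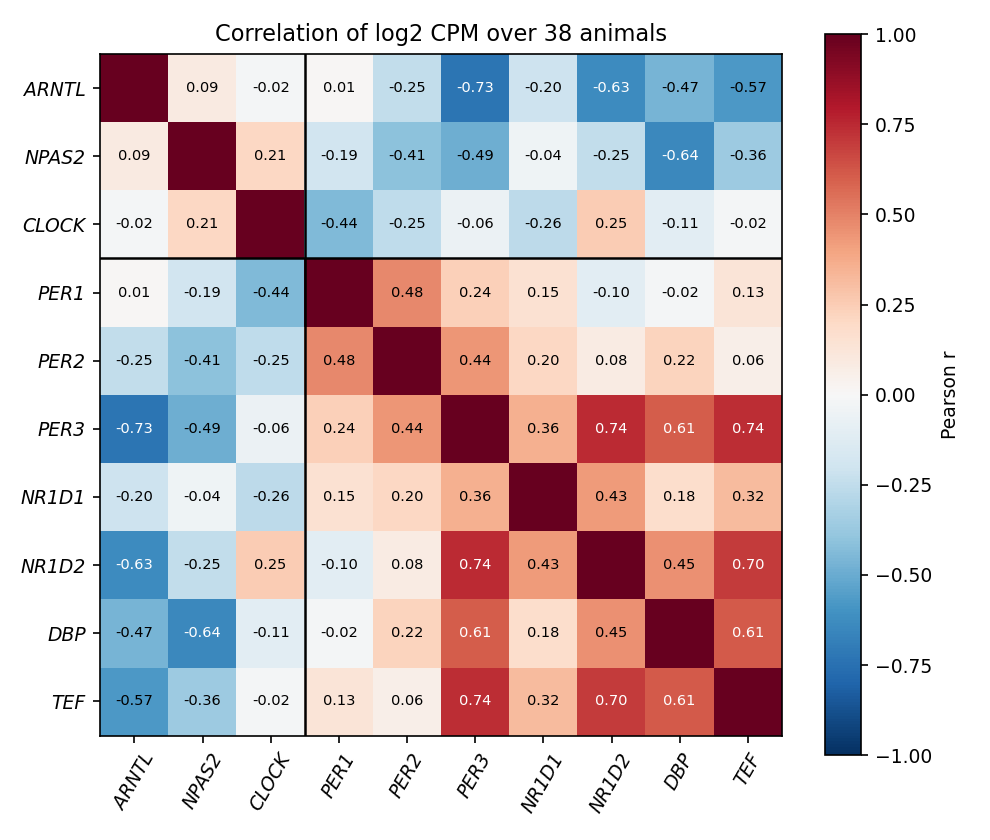
Pearson's r of log2 CPM over 38 animals for each pair of the 10 clock genes, in red above 0 and blue below 0. Black lines set ARNTL, NPAS2 and CLOCK apart from the repressor and output genes. The block of PER3, NR1D2, DBP and TEF ranges from 0.45 to 0.74, and r of ARNTL with these 4 ranges from −0.73 to −0.47.

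PER1 and PER2 formed a looser pair. They had r = 0.48 (permutation p = 0.00217; rho 0.36, permutation p = 0.0268), which was 0.23 without animals 529 and 503, and 0.04 in the earlier RNA against 0.65 in the later RNA. PER2 also followed PER3, with r = 0.44 (permutation p = 0.00612; rho 0.49, permutation p = 0.00233), 0.67 in the earlier RNA and 0.44 in the later RNA. PER1 had r = 0.24 with PER3 (permutation p = 0.146) and −0.02 with DBP (permutation p = 0.893). A principal component analysis of the 10 genes, given as a description, put 40.7% of their variance on a component with ARNTL (−0.36) and NPAS2 (−0.29) opposite PER3 (0.47), TEF (0.41), NR1D2 (0.39) and DBP (0.38). A further 19.5% was on a component that set PER1 (0.55) and PER2 (0.44) opposite CLOCK (−0.53).

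NR1D1 was correlated with its paralog NR1D2 and with PER3 over all animals, but neither r was past the threshold in the earlier RNA. With NR1D2 r was 0.43 (permutation p = 0.00759; rho 0.42, permutation p = 0.00885), with 0.03 in the earlier RNA and 0.45 in the later RNA. With PER3 r was 0.36 (permutation p = 0.0277; rho 0.32, permutation p = 0.0501), and with TEF it was 0.32 (permutation p = 0.0516; rho 0.39, permutation p = 0.0172). The correlations with NR1D2 and PER3 were both lost without the 8 animals with a virus note. There r was 0.23 with NR1D2 (permutation p = 0.226) and 0.20 with PER3 (permutation p = 0.299). Along NR1D1 over all 38 animals, 3 genes were called (0.0195%), all higher, and 0 of the 9 other clock genes by edgeR, DESeq2 or limma-voom. The number of genes called along NR1D1 moved widely with the fit, from 0 by limma-voom through 342 with DESeq2 size factors, 1635 by DESeq2 and 1746 with RIN and sex added to 4941 with the exon total. At an unadjusted p under 0.05, 3 of the 9 were higher (PER1, PER2 and NR1D2) and 1 was lower (CLOCK), against 18.3% and 10.1% of all genes. The 3 genes called were S100A6, a calcium-binding protein gene, at 0.56 ± 0.10 (adjusted p = 0.0417), SCNN1A, a subunit of the epithelial sodium channel, at 0.69 ± 0.13 (adjusted p = 0.0417) and SELENOM, which encodes a selenoprotein, at 0.60 ± 0.12 (adjusted p = 0.0474). Along NR1D1, ARNTL had a slope of −0.07 ± 0.16 (adjusted p = 0.79) and NPAS2 of −0.02 ± 0.11 (adjusted p = 0.914), and both signs turned under other scalings.

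Of the 7 repressor and output genes, PER1 was the one with a permutation p under 0.05 with CLOCK over all 38 animals. CLOCK had r = −0.44 with PER1 (permutation p = 0.00534; rho −0.53, permutation p = 8e-04), −0.55 without animals 4X0339 and 537, with −0.20 in the earlier RNA and −0.46 in the later RNA. With NR1D1 its r was −0.26 (permutation p = 0.113), and −0.38 (permutation p = 0.019) with extraction year taken out. CLOCK fell with the mitochondrial share of counts, by 0.82 ± 0.24 per doubling (adjusted p = 0.0144, edgeR), where 24.2% of all genes were called. The 3 animals with the lowest CLOCK, 4X0339, 537 and 558 (1.91, 2.65 and 2.72 CPM), had mitochondrial shares of 51.7%, 60.1% and 53.9%, and the part of this share in the relation of CLOCK to PER1 was not tested. Along CLOCK itself, 29.3% of all genes were called, and along PER2 34.4%, so that a call of a clock gene in those fits sets it apart little from other genes.

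PER2 and NR1D1 were called along sums of cell type markers, along which 50.9% or more of all genes were called too. PER2 fell with the summed cardiomyocyte markers by 0.61 ± 0.16 per doubling (adjusted p = 0.00129, edgeR), where 57.2% of all genes were called. It rose by 0.58 ± 0.12 with the fibroblast markers (adjusted p = 0.00017), where 50.9% were called. It also rose by 0.41 ± 0.09 with the immediate early genes (adjusted p = 0.00107), where 14.7% were called. NR1D1 fell by 0.44 ± 0.14 with the cardiomyocyte markers (adjusted p = 0.00887). The sum of 6 fibroblast markers ranged from 340 to 5450 CPM, and that of 10 immediate early genes from 84.8 to 2636 CPM. Their part in the correlations of PER2 and NR1D1 was not tested. Over the 10 clock genes, 5 of 130 slopes along the 12 marker and stimulus lists and the mitochondrial share passed by edgeR. Over all genes 16.8% passed, so the clock genes were called less often than genes in general. The 5 were those named here and that of CLOCK along the mitochondrial share. The summed atrial markers, which ended the call of PER3 along ARNTL, ranged from 40.1 to 21582 CPM, and 2 of the 6 had a median under 1 CPM.

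Other genes of the clock were taken from a list of 17. At an unadjusted p under 0.05, 2 of the 17 were lower and 1 was higher along ARNTL, against 2.48% and 4% of all genes, and 0 passed the adjustment by edgeR. CRY1, the cryptochrome repressor whose transcript peaks later than those of the PER genes, had the smallest p of the list, with a positive slope of 0.45 ± 0.13 (adjusted p = 0.652, rank 36). CIART, a repressor of the activator dimer, had −0.44 ± 0.18 (adjusted p = 0.706) and BHLHE40, an E-box repressor, −0.45 ± 0.19 (adjusted p = 0.731). CRY2, the other cryptochrome, had −0.23 ± 0.14 (adjusted p = 0.857), and BHLHE41, a paralog of BHLHE40, −0.32 ± 0.16 (adjusted p = 0.778). The PAR bZIP gene HLF had −0.20 ± 0.15 (adjusted p = 0.918), and NFIL3, a bZIP repressor that competes with the PAR factors for their sites, had 0.26 ± 0.15 (adjusted p = 0.848). RORA, a nuclear receptor that activates ARNTL, had 0.01 ± 0.15 (adjusted p = 0.998). RORA and BHLHE41 had 18 and 22 counts in their lowest libraries. The median slope of the 17 was 0.01, as for all genes. Of 10 output genes of the clock, 3 were higher and 0 lower along ARNTL at an unadjusted p under 0.05, against 4% and 2.48% of all genes, and 0 passed the adjustment.

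**Figure D5:**
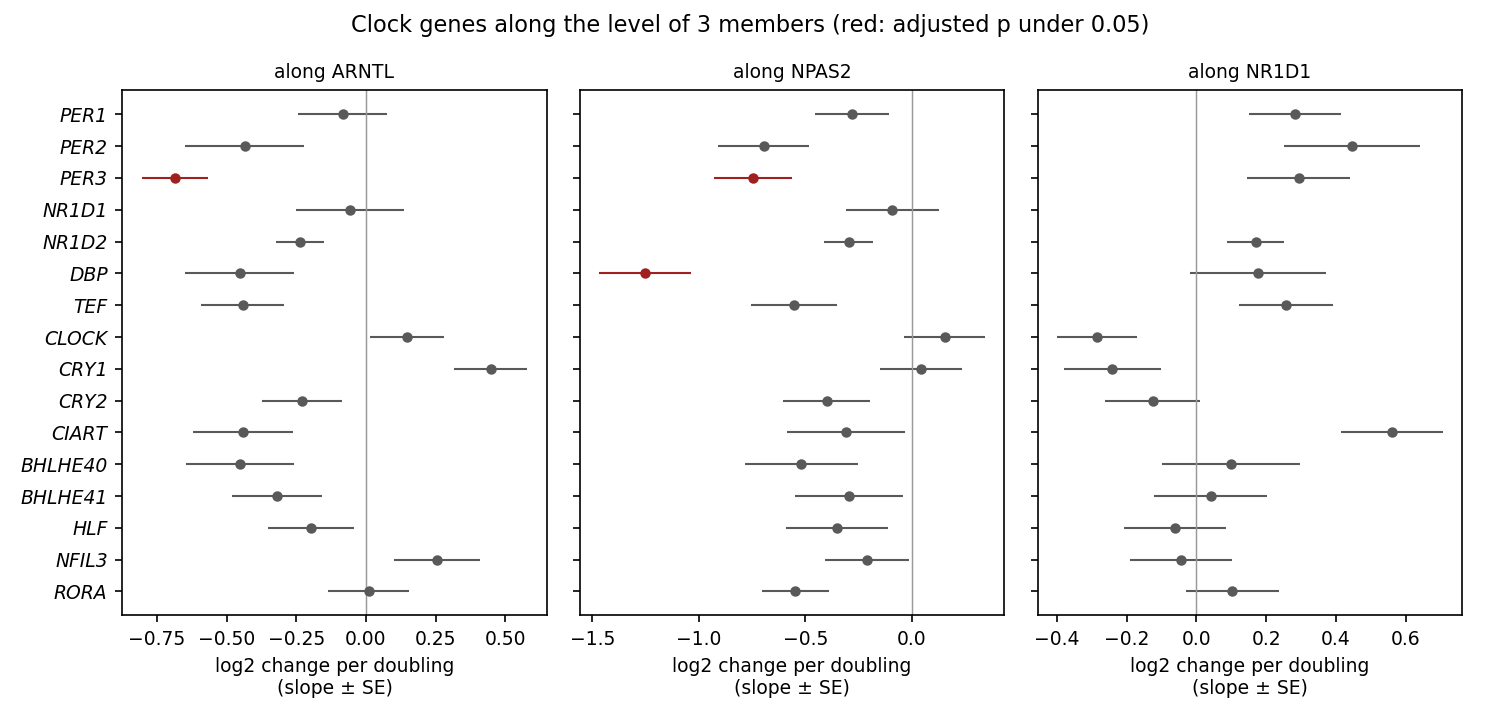
Slope of each clock gene (log2 change per doubling, horizontal axes, with SE bars) along the level of ARNTL, NPAS2 and NR1D1 in edgeR fits of 38 animals with extraction year as a covariate. Red points passed an adjusted p of 0.05 over all genes. PER3 is red along ARNTL, DBP and PER3 are red along NPAS2, and CIART has the highest slope along NR1D1, 0.56.

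Some of the listed genes were called along other clock genes, in fits that were not repeated under the alternatives except along NR1D1. Along TEF, 3 of the 17 were called, CIART at rank 2 (slope 0.85 ± 0.14, adjusted p = 0.0035, edgeR), HLF at rank 22 (0.68 ± 0.15, adjusted p = 0.0222) and CRY2 at rank 98 (0.54 ± 0.13, adjusted p = 0.0423), where 0.832% of all genes were called. CIART was highest in animal 338 at 15.8 CPM and lowest in animal 4X0333 at 1.99 CPM, with a median of 5.16 CPM. Along DBP, CRY2 was called (0.51 ± 0.12, adjusted p = 0.0205), where 2.26% of all genes were. Along PER2 and CLOCK, 10 and 5 of the 17 were called, where 34.4% and 29.3% of all genes were. Along NR1D1, CIART had the smallest p of the list (0.56 ± 0.15, adjusted p = 0.0544), just short of the threshold. Of the 10 output genes, CIRBP and RBM3, RNA-binding proteins induced by cold, and the heat shock gene HSPH1 were called along TEF, CIRBP and RBM3 higher and HSPH1 lower. HSPH1 reached 7492 CPM in animal Little_R, against a median of 49.8 CPM, and TEF was 16.1 CPM in that animal. The part of this animal in the call was not tested.

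FKBP5, a gene induced by glucocorticoids, had the smallest p along DBP, in a fit that was run in 1 setting only. It fell by 0.72 ± 0.12 per doubling of DBP (adjusted p = 0.00194, edgeR) at rank 1 of 15391. Animal Little_R had DBP at 7.33 CPM with the lowest FKBP5 of all, 18.2 CPM, and animal 570 had DBP at 1.06 CPM with the highest, 168 CPM. DBP itself had a slope of −0.75 along the summed glucocorticoid-responsive genes that did not pass (adjusted p = 0.0897). Along ARNTL, FKBP5 had a slope of 0.34 ± 0.18 (adjusted p = 0.798), and along NPAS2 of 0.62 ± 0.20 (adjusted p = 0.12). The 11 glucocorticoid-responsive genes were split along NPAS2. At an unadjusted p under 0.05, 3 were higher and 2 lower, against 4.31% and 9.99% of all genes. Only ERRFI1, named after its value was seen, was called, at −1.16 ± 0.25 (adjusted p = 0.0257, edgeR), where 0.812% of all genes were called. FOS, an immediate early gene, had −0.37 ± 0.48 along ARNTL (adjusted p = 0.965) and −0.93 ± 0.48 along NPAS2 (adjusted p = 0.377). All 10 tested immediate early genes had a negative slope along NPAS2, with a median of −0.99, against −0.0085 for all genes. At an unadjusted p under 0.05 by edgeR, 7 of the 10 were lower, against 9.99% of all genes, and 0 passed the adjustment.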

How the data were processed

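The deposited gene counts per animal were made by the authors from single-end RNA-seq reads of poly-A captured, TruSeq v2 libraries, aligned with STAR to Pan_tro_3.0 and counted per Ensembl gene. Further deposited tables served as alternatives only: gene counts over orthologous exons (featureCounts version 1.6.3, per the file headers), and a matrix of normalized expression scores, which the authors standardized per gene and quantile normalized, for 37 animals. Across the deposited tables, 52 columns of samples outside this series, 49 of them human, were not used. Columns of comparisons made by the authors were not used.

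Counts were filtered with filterByExpr, scaled by TMM and tested with edgeR 4.0.16 (quasi-likelihood, Benjamini-Hochberg over all genes, threshold 0.05), along log2 CPM (pseudocount 0.5) of ARNTL, NPAS2 or NR1D1 with extraction year as a covariate. The gene along which a fit ran was left out of it, and slopes are per doubling of CPM plus the pseudocount, which for a low gene is more than a doubling of its CPM. A separate fit held extraction year, RIN and sex, which came from the study's sample table. Correlations over all animals used log2 CPM and 100000 two-sided permutations of animals. Those in single years, other sets of animals, other scalings or with covariates taken out used 20000. Correlations are reported with extraction years apart and without the 2 animals farthest from the median. No p was adjusted over the clock genes alone. The members and gene lists were chosen with earlier results of these data known. Genes were named by this rule: all members, fixed members of the lists of other clock genes, the genes of smallest p along ARNTL and NR1D1, and FKBP5 and FOS. Exceptions are stated where they occur, apart from THRA and the output genes CIRBP, RBM3 and HSPH1, which were also named outside this rule.

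Alternatives were DESeq2 1.42.0, limma-voom (limma 3.58.1), other scalings, filters and covariates, and single extraction years. Animals 537 and Little_R were also left out together. Of the fits along a clock gene, only those along ARNTL, NPAS2 and NR1D1 were repeated under the alternatives. Marker sums as covariates, other members as the gene along which a fit ran, the interaction with extraction year, and leaving out the 8 animals with a virus note were added after seeing the data. No genome was at hand for the build of the files, so no coordinates, lengths or sequences are given, and levels are not compared between genes. The fits were tested on simulated data. Each animal had 43892814 or more gene counts. Counting error at the lowest count was at most 17.4% for the 10 clock genes (DBP, 33 counts), but 23.6% for RORA and 21.3% for BHLHE41.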

Additional observations from a re-analysis of the deposited data

How the results depend on the processing

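The calls of DBP along NPAS2, of ARNTL along extraction year and of NR1D2 along extraction year held in each alternative run over 30 or more animals. The call of PER3 along ARNTL was lost in 3 of 14 such alternatives and that of PER3 along NPAS2 in 8 of 14. Without the 8 animals with a virus note both were lost. Lost there too were the correlations of NPAS2 with TEF (r = −0.31) and of NR1D1 with NR1D2 (r = 0.23) and PER3 (r = 0.20). Of the alternative slopes of members along ARNTL, NPAS2 or NR1D1, 385 kept direction and call, 17 lost a call, 7 gained one and 23 turned sign.

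The number of genes called along ARNTL, 1 in the report, was 3 with the exon table's total as library size, 12 with all genes that had a count, 586 without extraction year, 14 by DESeq2, 2 with neutrophil and monocyte markers as a covariate, and 0 with the atrial markers, without the 8 animals with a virus note, in the earlier RNA and in the later RNA. Along NPAS2, 125 in the report, it was 33 with the exon total, 664 with all genes that had a count, 6 with at least 1 CPM in 19 animals, 2 with RIN and sex added, 18 in the earlier RNA, 0 in the later RNA, 227 by DESeq2, 18 by limma-voom, 40 with the atrial markers, 189 with the adipocyte markers, 14 with the mitochondrial share and 11 without the animals with a virus note. Along NR1D1, 3 in the report, it was 342 with DESeq2 size factors, 4941 with the exon total, 1918 with at least 1 CPM in 19 animals, 20 without extraction year, 1746 with RIN and sex added, 1635 by DESeq2, and 1 with all genes that had a count or with the atrial markers. It was 0 there in the earlier RNA, in the later RNA, without 537 and Little_R, without the animals with a virus note, by limma-voom, and with the adipocyte markers, the neutrophil and monocyte markers or the mitochondrial share. Along extraction year it was 1569 in place of 2488 without 537 and Little_R. Along RIN it was 2 with all genes that had a count and 206 by DESeq2 in place of 0. Along sex it was 147 by DESeq2 in place of 40. The count of clock gene pairs with p under 0.05 was 11 in the normalized matrix in place of 19. The cause of these changes was not tested.

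Signs turned only for values that did not pass in the report. With the exon total, slopes along ARNTL became 0.0057 for PER1 and 0.11 for NR1D1, that of NR1D1 along NPAS2 became 0.10, and those along NR1D1 became 0.047 for ARNTL and 0.10 for NPAS2. Without extraction year the slope of PER1 along ARNTL was 0.14 and that of NPAS2 along NR1D1 was 0.023. With RIN and sex added, NR1D1 along ARNTL was 0.037. In the earlier RNA, NR1D1 along ARNTL was 0.14, NR1D1 along NPAS2 was 0.10, ARNTL along NR1D1 was 0.14 and NPAS2 along NR1D1 was 0.093. In the later RNA, PER2 along ARNTL was 0.13. Without 537 and Little_R, NR1D1 along NPAS2 was 0.086, NPAS2 along NR1D1 was 0.060 and PER2 along RIN was −0.031. Without the animals with a virus note, NR1D1 was 0.062 along ARNTL and 0.038 along NPAS2, along NR1D1 ARNTL was 0.064 and NPAS2 was 0.10, DBP along RIN was 0.064, and along sex CLOCK was 0.057 and ARNTL −0.13. With the mitochondrial share, CLOCK along NPAS2 was −0.050, NR1D1 along NPAS2 was 0.056 and NPAS2 along NR1D1 was 0.015, and with at least 1 CPM in 19 animals the last was 0.0017. The r of ARNTL and PER1 was −0.050 in the earlier RNA, −0.27 in the later RNA, −0.17 given extraction year, −0.17 given extraction year, RIN and sex, and −0.0087 in the normalized matrix. The r of ARNTL and NR1D1 was 0.11 in the earlier RNA and 0.022 given extraction year, RIN and sex. The r of NPAS2 and PER1 was 0.10 in the normalized matrix. The r of NPAS2 and NR1D1 was 0.044 in the earlier RNA, 0.048 without 537 and Little_R, 0.050 without the animals with a virus note, 0.088 with the exon total and 0.031 in the normalized matrix. In that matrix r of ARNTL and NR1D2 was −0.15 and no longer past the threshold.

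No paired analysis was possible because the labels give no replicate numbers and a single group. DBP, with 33 counts in its lowest library, had the fewest counts of the 10 clock genes. The animals include relatives, and correlations over 38 animals cannot separate the hour of death, which was not given, from other differences between animals.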
